A study of Mus musculus with 9 samples.

Results

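The integrated stress response was examined in brain RNA of mice with cerebral venous sinus thrombosis (CVST) through 36 genes, chosen by name from the kinases, regulators and transcription factors of the response and from the genes that the transcription factor ATF4 is known to control. All 36 were among the 20731 gene symbols counted, and all 36 passed the filter on low counts that kept 14746 genes for testing. They were chosen by gene name, with earlier results of these data known. They fall into 7 roles: 4 kinases of eIF2α, eIF2α itself with 2 regulators of its phosphatase, 6 transcription factors and cofactors, 7 stress outputs, 9 enzymes of amino acid synthesis, 3 mitochondrial folate enzymes and 4 amino acid transporter genes.

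In the integrated stress response, any of several kinases phosphorylates eIF2α, the subunit of the initiation factor that brings the starter tRNA to the ribosome. PERK (Eif2ak3) responds to unfolded protein in the endoplasmic reticulum (ER), GCN2 (Eif2ak4) to uncharged tRNA, PKR (Eif2ak2) to double-stranded RNA and HRI (Eif2ak1) to lack of haem and to mitochondrial stress. Phosphorylation lowers translation in general but favours translation of the Atf4 mRNA, and ATF4 then switches on genes for amino acid supply, for feedback on eIF2α and, under lasting stress, CHOP (Ddit3) and genes tied to cell death. The phosphorylation of eIF2α and the translation of Atf4 cannot be read from mRNA levels, so the values here show the transcripts of these genes and the output of the response at the level of mRNA.

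The 9 libraries came from the brains of male C57BL/6J mice 8 to 10 weeks old, taken on day 2 after modelling, 3 mice in each of 3 groups. All mice had thrombosis of the superior sagittal sinus induced with ferric chloride, which the CVST group had without ligation. The CVST+Ligation group also underwent ligation of the deep cervical lymph nodes, done to impair meningeal lymphatic drainage. The 4-PBA group had the thrombosis, the ligation and an intraperitoneal injection of 4-phenylbutyric acid, an inhibitor of ER stress, which the methods place before modelling and the description of the data set after ligation. The methods state that control mice were given solvent in equal volume, without saying which of these groups that covers. Unoperated or sham mice were not analysed here, so no value shows the effect of the thrombosis itself. The labels name the tissue as brain and the data set's description as cortex.

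Between 18100739 and 25091498 reads were counted per library, and a floor of 3 counts corresponds to 0.114 to 0.163 CPM (counts scaled to library size by TMM), which covers counting error only. CPM is used below to compare libraries for 1 gene and FPKM, which also divides by gene length, to compare genes. The summed markers of brain regions differed between the groups. The 10 genes marking cortical excitatory neurons summed to 2247 to 2548 CPM in the CVST group, 645 to 1876 CPM in the CVST+Ligation group and 729 to 1050.1 CPM in the 4-PBA group. The 9 genes of the thalamus summed to 80.9 to 129, 266 to 851 and 488 to 827 CPM in the same order. The 9 genes of the striatum summed to 1073 to 1924, 229 to 536 and 268 to 1353 CPM. The 9 oligodendrocyte markers summed to 2687 to 3537, 2693 to 6032 and 4781 to 7592 CPM, and the 8 microglial markers to 656 to 731, 515 to 596 and 544 to 622 CPM. Replicate 2 of CVST+Ligation stood apart, with 1420.4 CPM for 10 cerebellar genes against at most 249 CPM elsewhere. Replicate 1 of the 4-PBA group also stood apart, with 3147 CPM for 8 genes of the choroid plexus against 21.1 to 987 CPM elsewhere. The 12 immediate early genes, which neurons switch on when active, summed to 669.5 to 1883 CPM in CVST and 283 to 576 CPM in the other libraries. In bulk tissue, fewer cells of a type and less RNA per cell cannot be told apart, and the part of these differences in the results below was not tested.

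ATF4 binds a short element, the CCAAT enhancer binding protein and ATF response element (CARE), so the promoters of the genes were searched for it. RefSeq promoters (GRCm38.p6, 250 bases before to 50 after the start) were matched by symbol for 32 of the 36 genes. The letters TGATGNAA on either strand were found in 8 of these 32 (25%), against 4.51% of 27025 genes with a promoter in the table. A match is a description of the letters and not a bound site. The ER stress element, CCAAT and CCACG with 9 bases of any kind between them, was found in 0 of the 32 and in 0.137% of all genes. The matches begin 193 bases before the start in Chac1, 23 in Asns, 66 and 47 in Slc7a11, 110 in Nupr1, 103 in Pycr1, 103 in Pck2 and 200 in Vldlr, and 14 bases after the start in Trib3. The sequences of 4 of these genes are shown because they cover a stress output, an amino acid enzyme, a transporter and a cofactor of ATF4. They are written 5′ to 3′ on the strand of the gene, with the matching bases in capitals. The starts are those of RefSeq, which lie inside the GENCODE gene spans given further on for Chac1, Asns and Nupr1. The stretch printed for Nupr1 therefore lies within its longer GENCODE span. Most of the stretch printed for Asns, with its match, also lies within the GENCODE span of that gene.
Chac1, chr2:119351019-119351086, plus strand: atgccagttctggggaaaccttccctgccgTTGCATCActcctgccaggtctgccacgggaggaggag
Asns, chr6:7693210-7693262, minus strand: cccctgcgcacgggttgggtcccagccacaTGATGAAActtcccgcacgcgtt
Slc7a11, chr3:50443623-50443709, minus strand: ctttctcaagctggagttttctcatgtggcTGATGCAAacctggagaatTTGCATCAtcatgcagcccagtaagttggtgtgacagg
Nupr1, chr7:126625543-126625610, minus strand: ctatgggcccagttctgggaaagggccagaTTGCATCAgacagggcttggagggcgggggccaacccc

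The levels of the 36 genes covered a wide range. Mean FPKM over the 9 libraries ran from 0.560 for Trib3 to 225 for Atf4. Of the 36 genes, 22 lay above the median FPKM of the genes tested and 5 in the top 10%: Atf4 (225 ± 35.4 FPKM, SD over 9 libraries), the asparagine synthetase gene Asns (164 ± 18.2), Slc3a2 (135 ± 19.8), Nupr1 (110.0 ± 88.3) and Psat1 (109 ± 25.1). At the other end, 6 genes had a mean FPKM below 3: Trib3, the kinase gene Eif2ak2, the folate enzyme gene Aldh1l2, Pycr1, the secreted glycoprotein gene Stc2 and the cystine transporter gene Slc7a11. The kinases differed in level, in the order Eif2ak1 (65.1 ± 6.18 FPKM), Eif2ak3 (14.2 ± 1.78), Eif2ak4 (7.40 ± 0.858) and Eif2ak2 (1.86 ± 0.769), and the ranges of neighbours in this order did not overlap over the 9 libraries. FPKM here divides by the coding length, which equals that of the GENCODE annotation for all 36 genes.

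**Figure D1:**
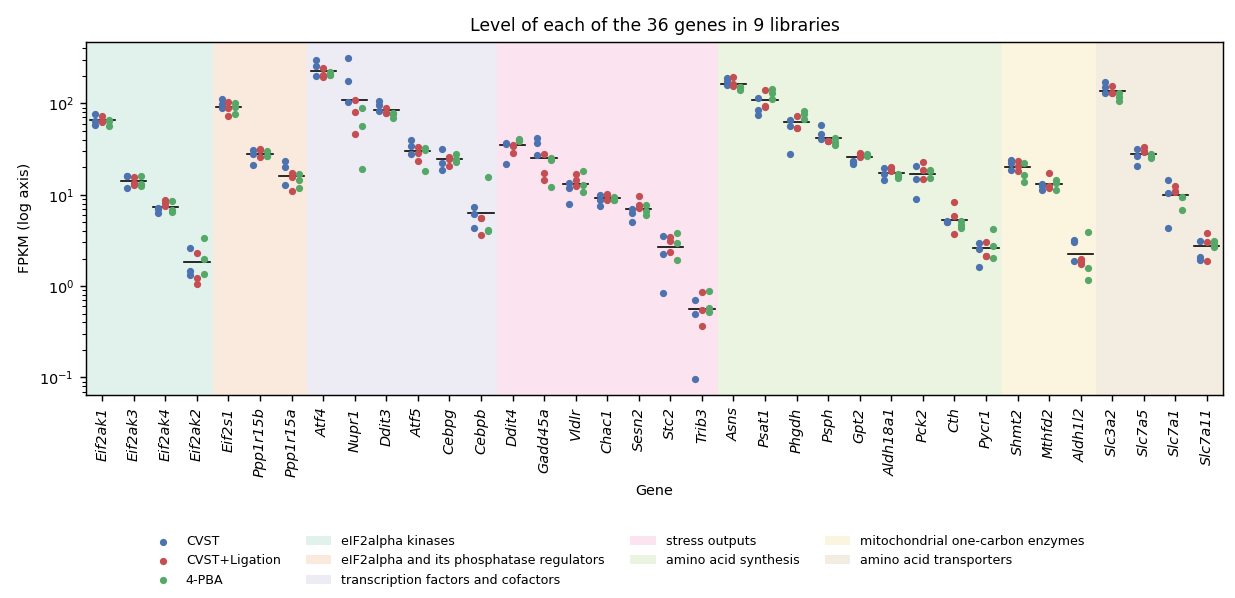
Level of each of the 36 genes in FPKM on a log axis, with 1 point per library coloured by group and a line at the mean of the 9 libraries; shading marks the 7 roles. Atf4 has the highest mean, 225 FPKM, and Trib3 the lowest, 0.560 FPKM.

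Mice of 1 group differed from each other by a median coefficient of variation of 17.9% over the 36 genes (range 4.65% for Gpt2 to 53.8% for Nupr1), against 20.6% over all genes tested. For the 6 transcription factors, the median deviation from each gene's mean was 0.38 (log2) in CVST replicate 1, -0.08 in replicate 2 and 0.38 in replicate 3, and it was -0.36 in 4-PBA replicate 1. The CVST group held the highest library for 19 of the 36 genes and the lowest library for 17, so that either extreme often fell in this group.

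**Figure D2:**
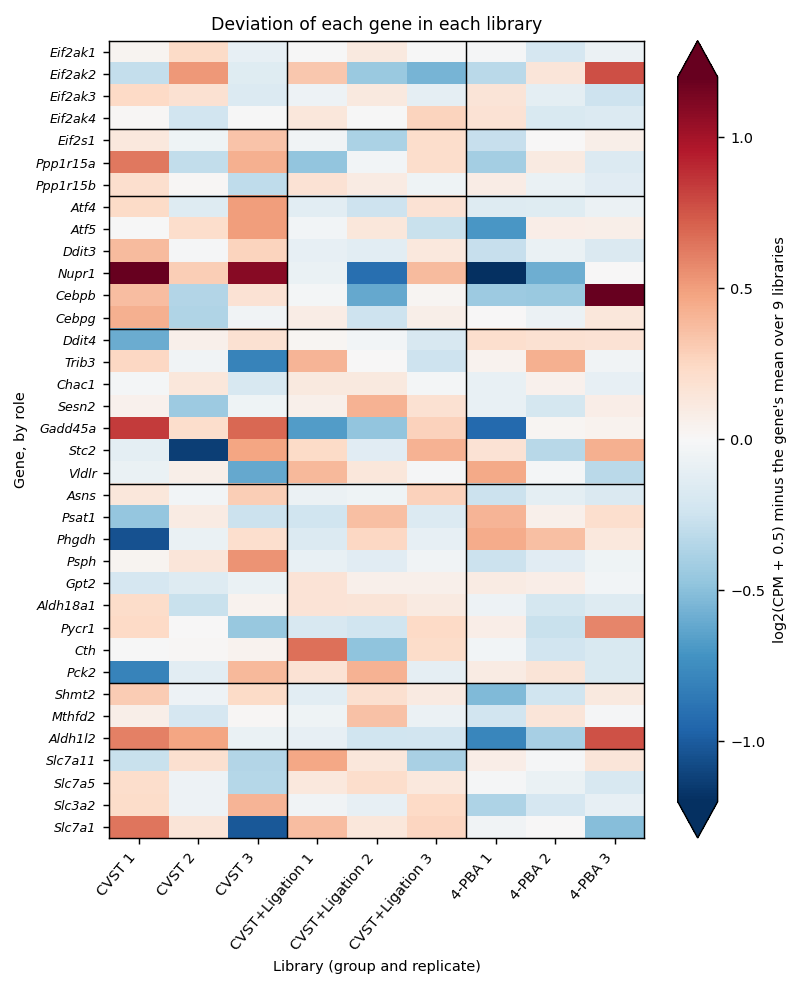
Each cell is the log2(CPM + 0.5) of a gene in a library minus that gene's mean over the 9 libraries, with genes in rows by role and libraries in columns by group; red is above and blue below the mean. CVST replicates 1 and 3 are red across Ppp1r15a, Atf4, Ddit3, Nupr1 and Gadd45a, whereas CVST replicate 2 is close to the ligated libraries for most of them.

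The comparison of CVST+Ligation with CVST asks what impaired lymphatic drainage adds to the thrombosis. The median log2 fold change of the 36 genes was 0.00, as over all genes tested, with 18 genes above 0 and 18 below. At an unadjusted p below 0.05 (edgeR's quasi-likelihood test), 0 of the 36 were higher and 2 were lower with ligation, Nupr1 and Gadd45a. Of all genes tested 9.64% passed in either direction, 5.47% higher and 4.18% lower. With Benjamini-Hochberg adjustment across the 14746 genes, 0 of the 36 passed 0.05 (0.0203% of all genes did), and the smallest adjusted p among them was 0.475; DESeq2 also gave 0 (1.7% of all genes with an adjusted p). At the unadjusted threshold, total counts and DESeq2 added Gpt2 as higher (1 higher and 2 lower), and limma called Gpt2 higher and Gadd45a lower but not Nupr1 (1 higher and 1 lower). The groups did not overlap for 4 of the 36 (13.8% of all genes): Sesn2 and Gpt2 were higher in every ligated mouse (6.61% of all genes), Psph and Aldh1l2 lower (7.21%). With ligation the 95% intervals of 34 genes excluded a 2-fold rise, those of 30 a 2-fold fall and those of 29 both. At 1.5-fold, 23 excluded a rise, 21 a fall and 14 both. Without replicate 2 of CVST+Ligation, or without its replicate 1, 0 of the 36 passed the unadjusted threshold. Without CVST replicate 2, 5 did, all lower: Gadd45a, Nupr1, Ppp1r15a, Ddit3 and Atf4. Without CVST replicate 3 the single gene was Pck2, and without CVST replicate 1 the 2 genes were Psph and Slc7a5.

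The comparison of 4-PBA with CVST+Ligation asks what the ER stress inhibitor adds in ligated mice. Here 0 of the 36 genes passed an unadjusted p below 0.05 (edgeR's quasi-likelihood test), against 3.23% of all genes tested (1.81% higher, 1.42% lower), and 0 passed after adjustment, as did 0.0% of all genes. DESeq2 and limma on log2 FPKM likewise gave 0 of the 36 at either threshold (DESeq2 called 0.127% of all genes after adjustment). The median log2 fold change of the 36 was -0.09, against -0.02 over all genes, with 10 above 0 and 26 below. The groups did not overlap for 7 of the 36 (7.73% of all genes, 3.51% higher and 4.22% lower). Lower in every 4-PBA mouse were Eif2ak1, Asns, Aldh18a1, Slc7a5, Slc3a2 and Slc7a1, which are 1 kinase, 2 amino acid enzymes and 3 amino acid transporter genes, and higher in every 4-PBA mouse was Ddit4, an inhibitor of mTORC1 signalling. None of these 7 passed the unadjusted threshold, and the nearest to it was Aldh18a1, the enzyme that begins proline synthesis from glutamate. The intervals of 27 genes excluded a 2-fold change in either direction. Without replicate 2 of CVST+Ligation 2 genes passed, Cth lower and Psat1 higher, and without 4-PBA replicate 3 there was 1, Shmt2.

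Between 4-PBA and CVST, which differ by both ligation and drug, 6 of the 36 genes were lower at an unadjusted p below 0.05 and 0 were higher (by edgeR's test 15.4% of all genes passed, 7.33% lower and 8.07% higher). The median log2 fold change was -0.04, against -0.01 over all genes, with 15 genes above 0 and 21 below, which became 19 above and 17 below when total counts replaced TMM. The 6 were Ddit3, Nupr1, Gadd45a, Asns, Psph and Slc3a2. After adjustment 0 of the 36 passed, against 0.122% of all genes, and the smallest adjusted p was 0.159, for Nupr1. With DESeq2 1 of the 36 passed, Nupr1 (adjusted p = 0.0115), against 5.46% of all genes by that tool. The groups did not overlap for 8 of the 36 (23.7% of all genes), which are these 6 and Cth, all lower (11.5%), and Gpt2, higher (12.3%). With total counts the calls were 2 higher, Gpt2 and Psat1, and 4 lower. Leaving out CVST replicate 1 gave 2 calls, Psph and Nupr1, leaving out 4-PBA replicate 1, the library highest in choroid plexus markers and lowest for 10 of the 36 genes, gave 1, Nupr1, and leaving out CVST replicate 2 gave 9. The 3 comparisons share libraries, so their values are not independent.

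**Figure D3:**
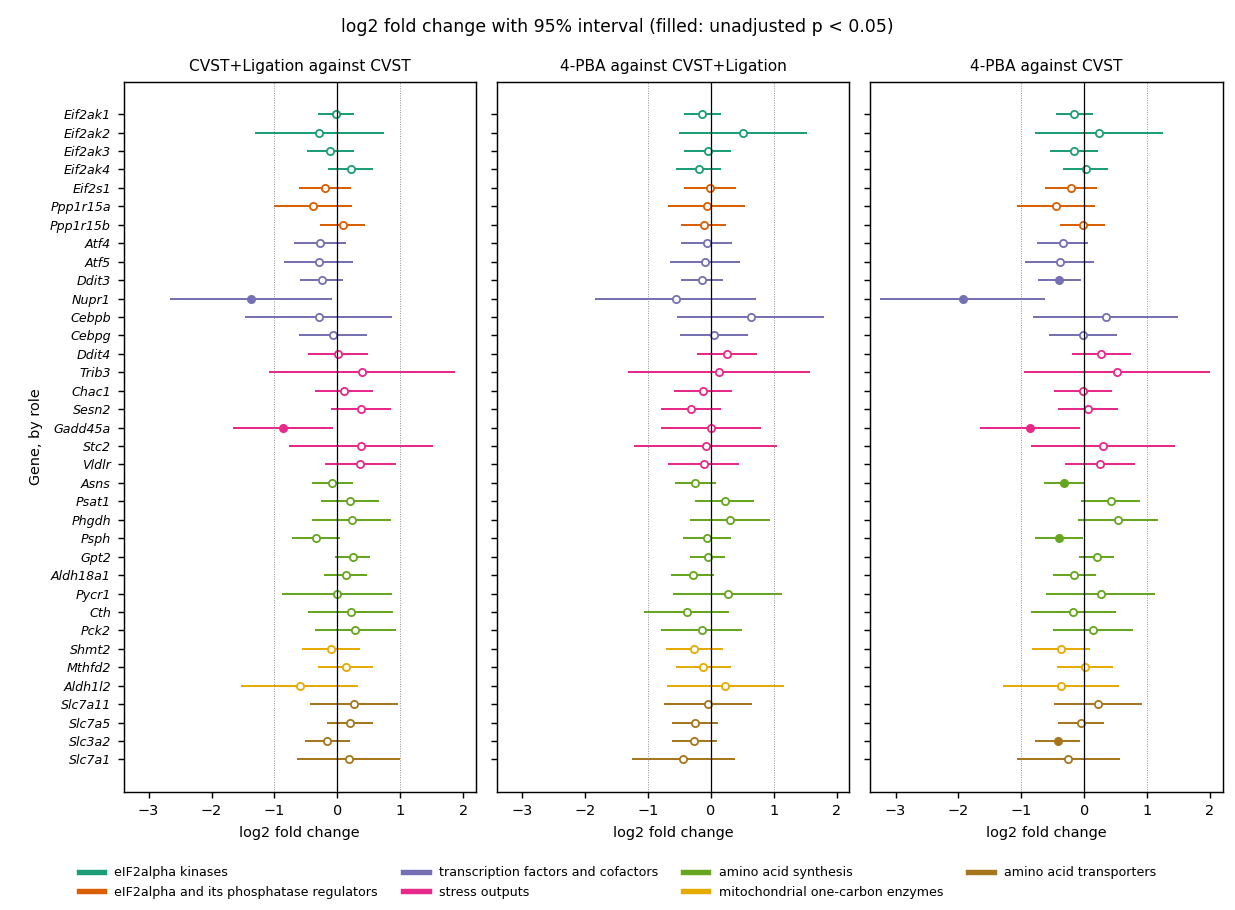
log2 fold change of each of the 36 genes with its 95% interval from edgeR's model in the 3 comparisons, coloured by role; filled points have an unadjusted p below 0.05 and dotted lines mark a 2-fold change. In CVST+Ligation against CVST 2 points are filled, in 4-PBA against CVST+Ligation 0 and in 4-PBA against CVST 6, all to the left of 0.

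Among the 4 kinases, 0 passed the unadjusted test in any comparison, against 9.64%, 3.23% and 15.4% of all genes for ligation, 4-PBA against CVST+Ligation and 4-PBA against CVST. Eif2ak3, which encodes PERK (chr6:70844515-70905245), was at 56.1, 54.1 and 42.5 CPM in the 3 CVST mice, 45.6, 51.7 and 44.2 CPM with ligation and 53.0, 43.7 and 39.9 CPM with 4-PBA. The 3 groups overlapped. With ligation its level was 0.926-fold that in CVST, with a 95% interval of 0.722 to 1.19, and with 4-PBA it was 0.965-fold that in CVST+Ligation (interval 0.753 to 1.24). Of its 3372 coding bases 485 lie under an exon of a gene on the opposite strand. Eif2ak1 was lower in every 4-PBA mouse (105 to 119 CPM) than in every CVST+Ligation mouse (120.2 to 131 CPM), a difference of -0.13 (log2, adjusted p above 0.99 by edgeR's test). In Eif2ak1, 172 of 1857 coding bases lie under opposite-strand exons of Aimp2 or Ankrd61, genes that were also counted. The interferon-induced kinase gene Eif2ak2 was low, with 1.67 to 4.95 CPM over the 9 libraries.

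Eif2s1, the gene of eIF2α (chr12:78861819-78887010), was at 94.4, 83.4 and 109.7 CPM in CVST, 84.1, 66.2 and 100.3 CPM in CVST+Ligation and 71.3, 86.6 and 90.6 CPM in 4-PBA. The range within each group was larger than the differences between the means of 95.8, 83.5 and 82.8 CPM. Ppp1r15a (chr7:45522916-45526268) encodes GADD34, which directs a phosphatase to eIF2α and is itself induced by the response. It was at 47.7, 24.9 and 41.2 CPM in CVST, 21.9, 29.9 and 35.4 CPM in CVST+Ligation and 22.9, 32.9 and 27.3 CPM in 4-PBA. CVST replicate 2 lay among the ligated mice, and CVST replicates 1 and 3 above all of them. The difference between CVST+Ligation and CVST was -0.39 (log2, 95% interval -0.99 to 0.22, adjusted p = 0.666 by edgeR's test), and without CVST replicate 2 it was -0.61, which passed the unadjusted threshold. The constitutive regulator Ppp1r15b ranged from 47.0 to 67.0 CPM with overlapping groups.

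Atf4, the central transcription factor (chr15:80255184-80257541), was at 274, 210.4 and 331 CPM in the CVST mice, 213, 196 and 263 CPM with ligation and 209, 211 and 222 CPM with 4-PBA. CVST replicates 1 and 3 lay above all other mice, CVST replicate 2 was level with the ligated mice, and the 4-PBA mice were close together (SD 6.54 CPM against 60.5 in CVST and 34.8 in CVST+Ligation). The fold difference was 0.825 (95% interval 0.628 to 1.08, adjusted p = 0.636 by edgeR's test) between CVST+Ligation and CVST, 0.956 (0.728 to 1.25, adjusted p above 0.99) between 4-PBA and CVST+Ligation, and 0.788 (0.600 to 1.03, adjusted p = 0.385) between 4-PBA and CVST. Without CVST replicate 2 the first was -0.43 and the last -0.48 (log2), and both passed the unadjusted threshold. The interval for ligation excluded a rise above 1.08-fold.

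Ddit3 encodes CHOP (chr10:127290774-127296288), the factor that links the response to cell death. Its level was 65.7, 49.7 and 60.8 CPM in CVST, 46.9, 46.0 and 54.9 CPM in CVST+Ligation and 41.5, 47.7 and 44.7 CPM in 4-PBA. Every 4-PBA mouse was below every CVST mouse, while the CVST+Ligation mice overlapped both groups. The fold difference was 0.840 (95% interval 0.672 to 1.05, adjusted p = 0.600 by edgeR's test) with ligation, 0.905 (0.724 to 1.13, adjusted p above 0.99) for 4-PBA against CVST+Ligation, and 0.760 (0.608 to 0.951, adjusted p = 0.230) for 4-PBA against CVST. The last was at p below 0.05 under 16 of 19 alternatives, the others being the fits without CVST replicate 1 and without 4-PBA replicate 1 or 3 (-0.40 to -0.30, log2). Ddit3 shares exon sequence on the opposite strand with the methionyl-tRNA synthetase gene, outside its coding bases.

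Nupr1 encodes a small nuclear protein induced by many stresses that acts with ATF4 (chr7:126623249-126630861). It was at 104, 33.6 and 58.9 CPM in CVST, 25.8, 14.3 and 35.8 CPM in CVST+Ligation and 5.96, 18.01 and 27.3 CPM in 4-PBA. The highest library was 17.4-fold the lowest, the widest ratio of the 6 transcription factors. CVST replicates 1 and 3 were highest, 4-PBA mice were below every CVST mouse, and CVST replicate 2 fell within the range of the CVST+Ligation mice. The level with ligation was 0.387-fold that in CVST (95% interval 0.160 to 0.933, adjusted p = 0.488 by edgeR's test), and that with 4-PBA was 0.262-fold that in CVST (0.107 to 0.642, adjusted p = 0.159). Between 4-PBA and CVST+Ligation it was 0.678-fold (0.283 to 1.62). The difference between 4-PBA and CVST was at p below 0.05 under 19 of 19 alternatives, from -2.44 to -1.42 (log2). That between CVST+Ligation and CVST was so under 13 of 19. It missed the threshold with limma (-1.27 and -1.28, log2, with pseudocounts of 1 and 0.1) and without CVST replicate 1 or 3 or CVST+Ligation replicate 1 or 2, at -1.46 to -0.87. The immediate early genes summed to 1856, 669.5 and 1883 CPM in the 3 CVST mice, with replicate 2 lowest as for Nupr1, Ppp1r15a, Atf4 and Ddit3, and their part in these differences was not tested.

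The other 3 transcription factors, Atf5, Cebpb and Cebpg, did not pass the unadjusted test. Atf5, a relative of ATF4, ranged from 15.1 CPM in 4-PBA replicate 1 to 35.2 CPM in CVST replicate 3. Cebpb, which partners ATF4 at CARE sequences and is also known from myeloid cells, was at 13.2 CPM in 4-PBA replicate 3 and 3.09 to 6.63 CPM in the other libraries. The 8 markers of infiltrating myeloid cells were also highest there, at 96.0 CPM against 30.8 to 70.0 CPM elsewhere. They were next highest in CVST replicate 2 (70.0 CPM), where Cebpb was at 3.81 CPM. In CVST+Ligation replicate 2, the library lowest for Cebpb (3.09 CPM), they summed to 64.1 CPM. Whether Cebpb and these markers are linked was not tested. Of the 888 coding bases of Cebpb 312 lie under exon sequence of a gene on the opposite strand. All 6 transcription factors had a log2 fold change below 0 with ligation, from -1.37 to -0.07 (5 of 6 with an offset for gene length). For 4-PBA against CVST+Ligation 4 of the 6 were below 0. For 4-PBA against CVST 5 were below 0 (4 with total counts, limma or the length offset). Of all 14746 genes tested 7336, 7812 and 7531 were below 0 in the same order.

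**Figure D4:**
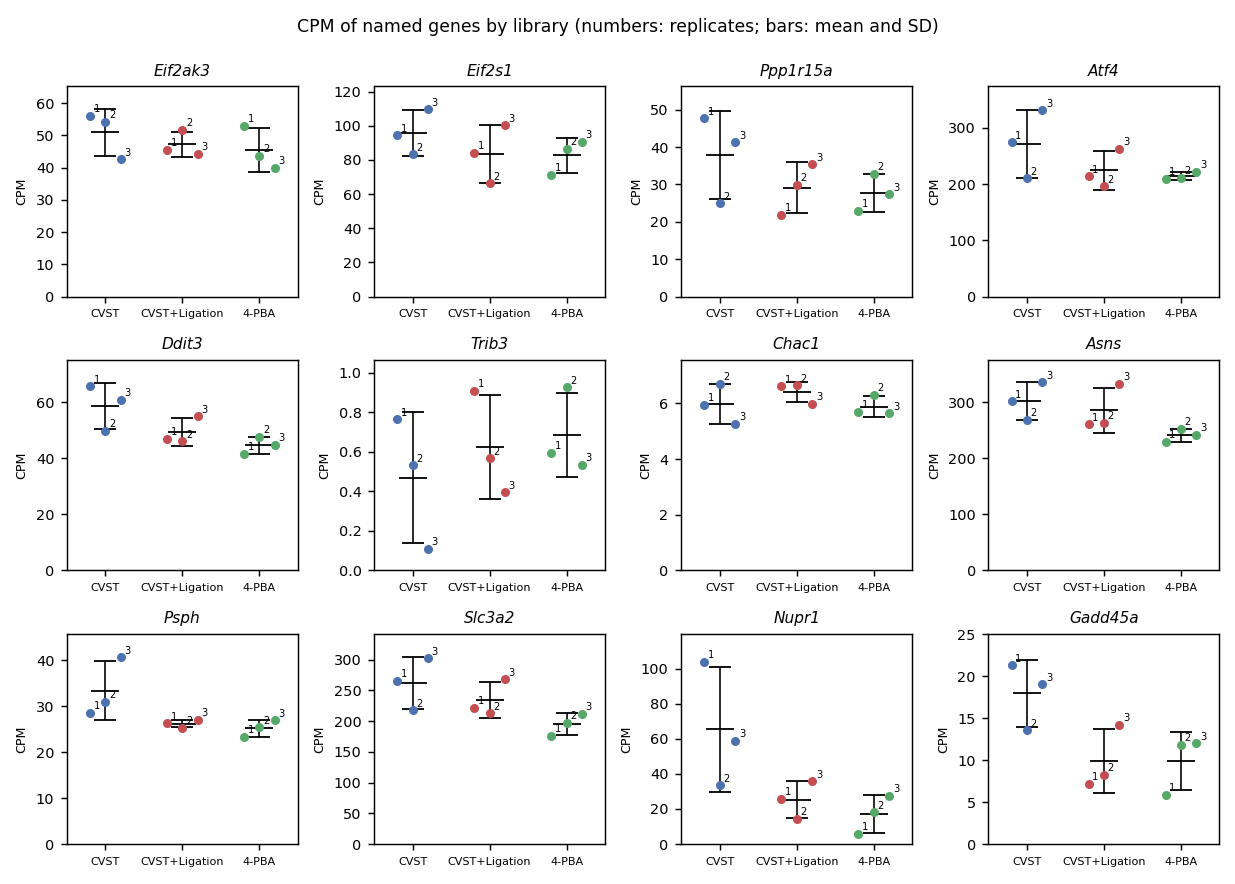
CPM of 12 genes in each library, with replicate numbers beside the points and horizontal bars at the mean and 1 SD of the 3 mice of a group; all axes start at 0. Atf4, Ddit3, Nupr1 and Gadd45a are highest in CVST replicates 1 and 3. Asns and Slc3a2 are lower in every 4-PBA mouse than in all other mice, and Ddit3 is lower there than in every CVST mouse.

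Of the 7 stress outputs, 0 were higher and 1 lower at an unadjusted p below 0.05 with ligation, and the same counts held for 4-PBA against CVST, in both cases for Gadd45a. Over all genes 5.47% were higher and 4.18% lower with ligation, and 8.07% and 7.33% for 4-PBA against CVST. Trib3, a pseudokinase gene that CHOP and ATF4 induce (chr2:152337422-152344032), had 2 to 22 counts per library: 0.765, 0.532 and 0.108 CPM in CVST, 0.909, 0.567 and 0.396 CPM in CVST+Ligation and 0.596, 0.926 and 0.533 CPM in 4-PBA. CVST replicate 3 lay under the floor of 3 counts, and the interval for ligation, from 0.474-fold to 3.62-fold, was wide at this depth. Chac1, which encodes a glutathione-degrading enzyme (chr2:119351229-119354381), was steadier, at 5.95, 6.70 and 5.26 CPM in CVST, 6.61, 6.65 and 5.98 CPM in CVST+Ligation and 5.69, 6.31 and 5.64 CPM in 4-PBA. Its intervals were 0.788-fold to 1.46-fold for ligation and 0.673-fold to 1.25-fold for 4-PBA against CVST+Ligation.

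Gadd45a (chr6:67035096-67037457), a growth arrest gene switched on by DNA damage and by ATF4, was lower than in CVST at an unadjusted p below 0.05 in both ligated groups. It was at 21.3, 13.6 and 19.0 CPM in CVST, 7.15, 8.25 and 14.2 CPM in CVST+Ligation and 5.85, 11.82 and 12.003 CPM in 4-PBA. CVST replicate 2 lay just below CVST+Ligation replicate 3, and all 4-PBA mice were below all CVST mice. The level with ligation was 0.549-fold that in CVST (95% interval 0.320 to 0.943, adjusted p = 0.475 by edgeR's test), and that with 4-PBA 0.552-fold (0.322 to 0.947, adjusted p = 0.277). Between the ligated groups the log2 difference was 0.01 (-0.77 to 0.79). Without CVST replicate 1 or 3, or CVST+Ligation replicate 1 or 2, the difference for ligation was -0.84 to -0.68 (log2) and missed the unadjusted threshold. That for 4-PBA against CVST missed it without CVST replicate 1 or 3 or 4-PBA replicate 1, at -0.83 to -0.58. Of its 495 coding bases 238 lie under an exon of a gene on the opposite strand. Sesn2, which restrains mTORC1, was at 10.4 to 13.5 CPM with ligation and 7.23 to 10.3 CPM in CVST (log2 0.38, adjusted p = 0.587), and at 8.54 to 10.5 CPM in 4-PBA. Vldlr, Ddit4 and Stc2 had overlapping groups in both comparisons with CVST.

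Of the 9 enzymes of amino acid synthesis, 0 passed the unadjusted test with ligation (9.64% of all genes), 0 for 4-PBA against CVST+Ligation (3.23%) and 2 for 4-PBA against CVST (15.4%), where Asns and Psph were lower (7.33%). Asns, the asparagine synthetase gene and a classical ATF4 target (chr6:7675169-7693254), was at 301, 268 and 335 CPM in CVST, 261, 264 and 332 CPM in CVST+Ligation and 229, 252 and 242 CPM in 4-PBA. Every 4-PBA mouse was below every mouse of both other groups. The level with 4-PBA was 0.845-fold that in CVST+Ligation (95% interval 0.683 to 1.04, adjusted p above 0.99 by edgeR's test) and 0.799-fold that in CVST (0.646 to 0.989, adjusted p = 0.299). With ligation alone it was 0.946-fold (0.765 to 1.17). The difference between 4-PBA and CVST was at p below 0.05 under 9 of 19 alternatives. It missed the threshold with total counts and with both limma fits (-0.25 each, log2), with the gene length offset (-0.30) and without CVST replicate 1 or 3, CVST+Ligation replicate 1 or any 4-PBA mouse (-0.36 to -0.26).

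In the serine pathway, the last enzyme and the earlier ones had values on opposite sides of 0. Psph, which releases serine from phosphoserine (chr5:129765558-129787449), was at 28.5, 30.9 and 40.7 CPM in CVST, 26.3, 25.4 and 27.1 CPM in CVST+Ligation and 23.3, 25.4 and 27.0 CPM in 4-PBA. Both ligated groups lay below every CVST mouse. The log2 fold change was -0.35 with ligation (adjusted p = 0.534 by edgeR's test) and -0.40 for 4-PBA against CVST (adjusted p = 0.276). The latter was at p below 0.05 under 12 of 19 alternatives. It missed the unadjusted threshold with total counts (-0.33), with limma on log2(FPKM + 0.1) (-0.32), in the fit of only the groups compared (-0.39) and without CVST replicate 3 (-0.25), CVST+Ligation replicate 1 or 4-PBA replicate 1 or 2. Phgdh, the enzyme that commits glucose carbon to serine, was at 47.5, 93.1 and 113 CPM in CVST, 87.6, 117 and 92.0 CPM in CVST+Ligation and 134, 126 and 107 CPM in 4-PBA, and its log2 fold change for 4-PBA against CVST was 0.53 (adjusted p = 0.389), which passed the unadjusted threshold with both limma fits and without CVST replicate 3. For Psat1, the enzyme between them, that value was 0.42 (adjusted p = 0.354). It passed the unadjusted threshold with total counts, the replicate block, both limma fits, the gene length offset and the fit of only the groups compared. It also passed without CVST replicate 2 and without CVST+Ligation replicate 2. Phgdh and Psat1 are known to be rich in astrocytes. The 9 astrocyte markers summed to 2045 to 3167 CPM in CVST, 2421 to 3877 CPM in CVST+Ligation and 2475 to 3685 CPM in 4-PBA. Their sum was lowest in CVST replicate 1, as were Phgdh and Psat1. In 4-PBA replicate 1, where both genes were highest, the markers summed to 2574 CPM, less than the 3167 CPM in CVST replicate 2. The part of astrocytes in these values was not tested. Gpt2, an alanine transaminase gene, was the steadiest of the set, at 35.4 to 38.8 CPM in CVST, 42.7 to 46.1 CPM in CVST+Ligation and 40.05 to 43.8 CPM in 4-PBA. It was higher in every ligated mouse of both groups than in every CVST mouse, by 0.24 (log2, adjusted p = 0.546) and 0.20 (adjusted p = 0.463). Aldh18a1 was at 45.5 to 47.3 CPM in CVST+Ligation and 36.5 to 40.4 CPM in 4-PBA (log2 -0.29, adjusted p above 0.99).

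Of the mitochondrial folate enzymes, Shmt2 and Mthfd2 pass carbon units from serine towards formate, and Aldh1l2 oxidises such units to CO2. Of these 3, 0 passed the unadjusted test in any comparison (9.64%, 3.23% and 15.4% of all genes). Without 4-PBA replicate 3, Shmt2 passed as lower in both comparisons of 4-PBA and Aldh1l2 as lower for 4-PBA against CVST. The largest log2 fold change among them was -0.60 for Aldh1l2 with ligation (adjusted p = 0.662 by edgeR's test), where 4.90 to 5.46 CPM in CVST+Ligation lay below 5.53 to 9.18 CPM in CVST. In 4-PBA this gene spread from 3.20 to 10.3 CPM, over both other groups.

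Of the 4 transporter genes 1 was lower at an unadjusted p below 0.05 for 4-PBA against CVST, Slc3a2 (7.33% of all genes were lower), and 0 passed with ligation (9.64% of all genes) or for 4-PBA against CVST+Ligation (3.23%). Slc3a2 encodes the heavy chain that pairs with amino acid exchangers (chr19:8706882-8723369). It was at 265, 217 and 302 CPM in CVST, 221, 213 and 268 CPM in CVST+Ligation and 176, 197 and 212 CPM in 4-PBA. All 4-PBA mice were below all mice of both other groups, by a margin of less than 1 CPM against the lowest CVST+Ligation mouse. The level with 4-PBA was 0.834-fold that in CVST+Ligation (95% interval 0.656 to 1.06, adjusted p above 0.99 by edgeR's test) and 0.745-fold that in CVST (0.587 to 0.947, adjusted p = 0.230). The latter missed the unadjusted threshold without CVST replicate 1 or 3 or 4-PBA replicate 1 (-0.40 to -0.33, log2). Its light chain partner Slc7a5, which carries large neutral amino acids, was at 46.5 to 49.5 CPM in CVST+Ligation and 37.2 to 42.3 CPM in 4-PBA (log2 -0.25, adjusted p above 0.99), and 33.5 to 49.4 CPM in CVST. Slc7a1, which carries arginine and lysine, was at 8.46 CPM in CVST replicate 3 and 12.2 to 27.9 CPM in the other libraries. Slc7a5, Slc7a1 and Slc3a2 are all known from brain endothelium. Slc7a5 and Slc7a1 were lowest in CVST replicate 3, where Slc3a2 was highest. The 9 endothelial markers were also lowest there, at 278 CPM against 314 to 475 CPM elsewhere, and their part in these levels was not tested. Slc7a11, which imports cystine for glutathione, ranged from 2.99 to 5.83 CPM with overlapping groups and was lowest in CVST+Ligation replicate 3.

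The fold changes were also set out by the CARE letters shown above. Of the 8 with a match, 0 were higher and 1 lower at an unadjusted p below 0.05 with ligation, 0 of 8 passed for 4-PBA against CVST+Ligation, and 2 were lower for 4-PBA against CVST (Nupr1 and Asns). Of the 24 without a match, 1 was lower with ligation, 0 passed for 4-PBA against CVST+Ligation and 4 were lower for 4-PBA against CVST. The median log2 fold changes of the 8 were 0.18, -0.12 and 0.18 in these comparisons and those of the 24 were -0.09, -0.07 and -0.16. Over all genes 4.18% were lower with ligation and 7.33% for 4-PBA against CVST. These are descriptions with no test.

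A further 55 genes of the pathway were counted in the same fit: 16 subunits of eIF2 and its exchange factor eIF2B and regulators of the kinases, 13 genes of aminoacyl-tRNA synthetases and tRNA export, and 26 other targets of ATF4 and CHOP. In edgeR's test, 2 of the 55 were higher and 1 lower with ligation at an unadjusted p below 0.05, with 4-PBA against CVST+Ligation 1 was higher and 0 lower, and with 4-PBA against CVST 5 were higher and 3 lower. The shares of all genes were 5.47% higher and 4.18% lower, 1.81% and 1.42%, and 8.07% and 7.33% in the same order. After adjustment 0 of the 55 passed in any comparison by edgeR's test (0.0203%, 0.0% and 0.122% of all genes). DESeq2 gave 1 for ligation, Impact, 0 for 4-PBA against CVST+Ligation and 4 for 4-PBA against CVST, which were Impact, Nck2, Ppp1ca and Slc6a9 (1.7%, 0.127% and 5.46% of all genes). The 13 synthetase and export genes all had a log2 fold change below 0 for 4-PBA against CVST+Ligation, from -0.23 to -0.01 with a median of -0.13 (12 of 13 with total counts), and 12 of the 13 for 4-PBA against CVST (10 of 13). In the first of these 0 of the 13 passed the unadjusted test and in the second 1, Mars1. With ligation 6 of the 13 were above 0 and 7 below (8 and 5 with total counts). Of all 14746 genes tested 7812 were below 0 for 4-PBA against CVST+Ligation, 7531 for 4-PBA against CVST and 7336 with ligation. Mars1, the methionyl-tRNA synthetase gene, was at 109, 98.8 and 110.1 CPM in CVST, 97.5, 96.5 and 103 CPM in CVST+Ligation and 83.1, 84.1 and 88.8 CPM in 4-PBA, with all 4-PBA mice below all others.

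Impact, an inhibitor of GCN2 activation that is rich in neurons, had the smallest p of the pathway in both comparisons with CVST. It was at 195, 149 and 130.5 CPM in CVST, 239.8, 292 and 244 CPM in CVST+Ligation and 334, 295 and 255 CPM in 4-PBA. Every mouse of both ligated groups was above every CVST mouse. It was 1.64-fold higher with ligation (95% interval 1.25 to 2.14, adjusted p = 0.289 by edgeR's test) and 1.86-fold higher with 4-PBA than in CVST (1.42 to 2.45, adjusted p = 0.0567). Both were at an unadjusted p below 0.05 under 19 of 19 alternatives. Over these alternatives the lowest adjusted p was 0.0295 for ligation, with DESeq2. It was 0.00044 for 4-PBA against CVST, also with DESeq2, and both limma fits and the fit without CVST+Ligation replicate 2 passed the adjusted threshold as well. Impact is also known to be strong in the hypothalamus, whose 9 markers summed to 5.90 to 46.1 CPM in CVST, 7.37 to 66.1 CPM in CVST+Ligation and 300.3 to 613 CPM in 4-PBA. The part of the brain regions in its level was not tested.

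Ppp1ca, the catalytic subunit of protein phosphatase 1 that GADD34 directs to eIF2α, was at 408, 396 and 408 CPM in CVST, 298, 273 and 331 CPM in CVST+Ligation and 275, 326 and 309 CPM in 4-PBA. The CVST mice were close together (SD 7.04 CPM) and above all ligated mice. The log2 fold change was -0.43 with ligation (adjusted p = 0.308 by edgeR's test) and -0.41 for 4-PBA against CVST (adjusted p = 0.144). Nck2, an adaptor known to bind eIF2α phosphatase complexes, was at 45.0, 39.5 and 41.3 CPM in CVST, 35.5, 22.6 and 38.5 CPM in CVST+Ligation and 19.5, 16.5 and 30.4 CPM in 4-PBA. Its log2 fold change was -0.92 for 4-PBA against CVST (adjusted p = 0.143) and -0.54 for 4-PBA against CVST+Ligation (adjusted p above 0.99). The latter missed the unadjusted threshold, but passed it without CVST+Ligation replicate 2 (-0.72) and without 4-PBA replicate 3 (-0.84). With DESeq2 the adjusted p for 4-PBA against CVST was 0.0345 for Ppp1ca and 0.0295 for Nck2. Both genes and the cortical excitatory markers were highest in the CVST mice, and the part of the regions was not tested.

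Slc6a9, a glycine transporter gene, was at 49.2, 62.6 and 67.1 CPM in CVST, 69.0, 179 and 84.9 CPM in CVST+Ligation and 129, 112 and 112 CPM in 4-PBA. It was higher with ligation by 0.90 (log2, adjusted p = 0.417 by edgeR's test). It missed the unadjusted threshold without replicate 2 of CVST+Ligation (0.37) and without CVST replicate 1 (0.77). The 10 markers of the midbrain and brainstem summed to 19.0 to 20.4 CPM in CVST, 165 to 443 CPM in CVST+Ligation and 211 to 221 CPM in 4-PBA, highest in the same replicate 2, and their part was not tested. Slc1a5, a neutral amino acid transporter gene, was the single gene of the 55 at an unadjusted p below 0.05 between 4-PBA and CVST+Ligation. It was at 2.55, 7.95 and 4.34 CPM against 2.36, 2.22 and 1.63 CPM (log2 1.26, adjusted p above 0.99). It missed the unadjusted threshold without 4-PBA replicate 2 (0.74) and without CVST+Ligation replicate 3 (1.11).

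**Figure D5:**
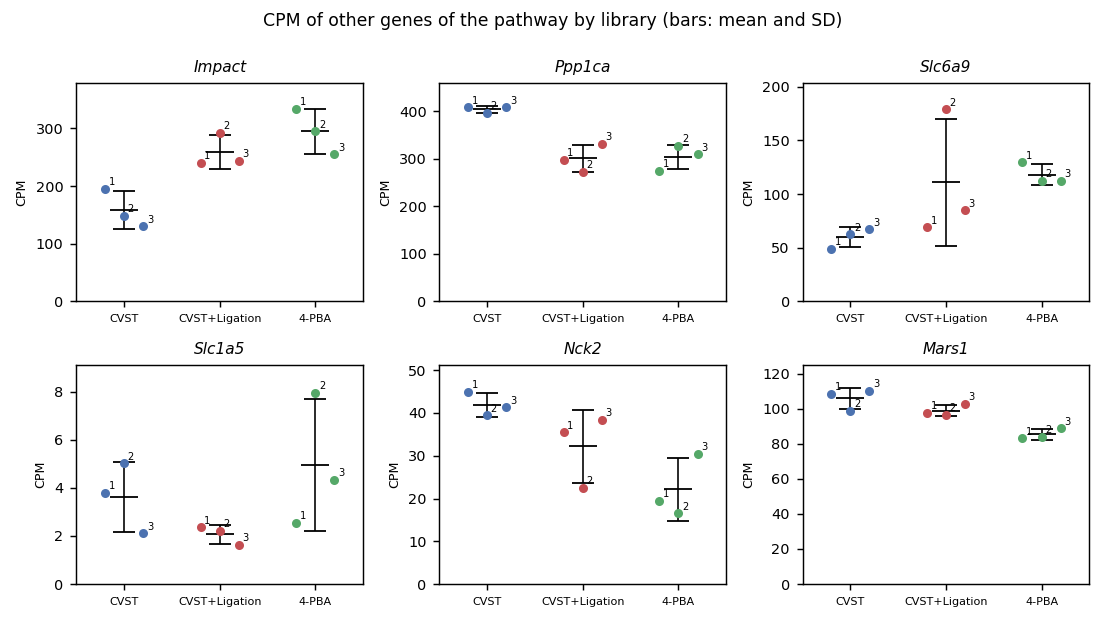
CPM of 6 other pathway genes, those with the 3 smallest p in each comparison, with replicate numbers beside the points and bars at the mean and 1 SD of 3 mice; all axes start at 0. Impact is higher and Ppp1ca lower in every ligated mouse, Mars1 is low in all 4-PBA mice, and Slc6a9 reaches 179 CPM in CVST+Ligation replicate 2.

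Atf3, Bbc3 and Casp12, which are tied to stress and cell death, were low in every library. Atf3, a stress-induced factor, was at 4.04, 0.71 and 4.12 CPM in CVST, 1.16, 2.11 and 3.30 CPM in CVST+Ligation and 0.217, 7.07 and 6.55 CPM in 4-PBA. Its 4-PBA mice covered the range of all others. Its log2 fold change for 4-PBA against CVST+Ligation was 1.08 (adjusted p above 0.99 by edgeR's test), and without 4-PBA replicate 1 it was 1.65 and passed the unadjusted threshold. Bbc3, which encodes the death protein PUMA, ranged from 0.975 to 1.54 CPM. Casp12, which encodes the caspase linked to ER stress in rodents, ranged from 0.992 to 2.36 CPM apart from 4.59 CPM in CVST+Ligation replicate 2. With that replicate its log2 fold change was 0.41 for ligation (adjusted p = 0.826 by edgeR's test) and -0.09 for 4-PBA against CVST+Ligation (adjusted p above 0.99). Without it the values were -0.59 and 0.93, and the latter passed the unadjusted threshold.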

How the data were processed

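Brain RNA of 9 mice was sequenced, and the labels put 3 mice in each group. Per the methods and the submitters' processing notes, the authors trimmed reads with fastp, aligned them with HISAT2, assembled transcripts with StringTie and quantified them with RSEM on GRCm38 (mm10). Versions, annotation and the program behind the counts are not given in the sources used here. The authors deposited raw read counts per gene symbol, whole numbers with no normalization, for 20731 genes. They also deposited FPKM values, called TPM in the methods, which equal the count over total reads and coding length; their sums of 780195 to 879696 per library differ from those of TPM.

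Counts were analysed with edgeR 4.0.16 in R 4.3.3 (TMM, filterByExpr, quasi-likelihood test), in 1 fit of the 3 groups, which left 14746 genes. Benjamini-Hochberg adjustment ran over all of these; calls use p below 0.05, unadjusted or adjusted, and intervals are at 95%. An exact permutation test of 3 against 3 cannot give a two-sided p below 0.1, so none was used. CPM is after TMM, and FPKM served only to compare genes and for limma 3.58.1 on log2(FPKM + 1) or log2(FPKM + 0.1). The scripts were tested on simulated data. Libraries held 18100739 to 25091498 reads, and no 2 libraries of a group agreed within sampling noise. Replicate correlations within groups were 0.942 to 0.979.

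The 36 genes, the 55 other pathway genes and the marker lists were chosen with earlier results of these data known. Genes given sample by sample were Eif2ak3, Eif2s1, Ppp1r15a, Atf4, Ddit3, Trib3, Chac1, Asns, every one of the 36 at an unadjusted p below 0.05, Atf3, Bbc3, Casp12 and the 3 other pathway genes with the smallest p in each comparison; further genes, Phgdh sample by sample among them, were named after their values were seen. Alternatives were DESeq2 1.42.0 on all 17446 genes with a count, its size factors, total counts, other count filters (at least 1 count, or at least 10 counts in every library), a replicate block, a gene length offset, fits of only the groups compared, limma and the omission of each library. Gene positions are from GENCODE vM21 and promoters from RefSeq.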

Additional observations from a re-analysis of the deposited data

How the results depend on the processing

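For CVST+Ligation against CVST the 2 calls among the 36 genes became 2 or 3 under the other tools, scalings and filters and 0 to 5 when 1 library was left out. Total counts and DESeq2 added Gpt2 as higher, and limma called Gpt2 higher and Gadd45a lower without Nupr1. DESeq2 also differed from edgeR in using every gene with a count, so it was rerun, after seeing the data, on the genes edgeR tested: calls among the 36 were then 4 (Psph added), 0 and 6, and those over all genes 264, 22 and 855. For 4-PBA against CVST+Ligation the 0 calls became 1 (Aldh18a1) in the fit of only the groups compared and 0 to 2 when 1 library was left out. For 4-PBA against CVST the 6 calls became 6 to 8 and 1 to 9; limma gave 3 higher and 5 lower with log2(FPKM + 1) and 3 higher and 4 lower with log2(FPKM + 0.1), and Psat1 was the 1 gene called higher with the length offset and in the fit of only the groups compared. Over all genes, calls at an adjusted p below 0.05 were less stable. For CVST+Ligation against CVST 3 became 260 with DESeq2, 13 with limma on log2(FPKM + 0.1), 1 in the fit of only the groups compared, 0 under the filter of 10 counts everywhere and 0 to 7 without 1 library. For 4-PBA against CVST+Ligation 0 became 22 with DESeq2, 2 with limma on log2(FPKM + 1) and 0 to 2 without 1 library. For 4-PBA against CVST 18 became 837 with DESeq2, 112 with at least 1 count, 6 under the filter of 10 counts everywhere, 87 and 134 with limma, 84 with the length offset, 234 in the fit of only the groups compared and 2 to 541 without 1 library (541 without CVST+Ligation replicate 2). The causes were not tested.

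The labels do not state whether replicate numbers pair the mice. Same-number correlations of deviations ran from 0.03 to 0.32, 0.03 to 0.12 and -0.05 to 0.02 in the 3 comparisons. Every library correlated best with its own number between 4-PBA and CVST+Ligation. That held for replicates 2 and 3 between CVST+Ligation and CVST and for replicate 1 between 4-PBA and CVST. These values do not settle whether the mice were paired. With the replicate block the calls among the 36 genes were 2, 0 and 8 (Atf4 and Psat1 added), Nck2 of the other pathway genes passed the unadjusted threshold between 4-PBA and CVST+Ligation (-0.54), those over all genes at an adjusted p below 0.05 were 1, 1 and 25, and the log2 fold changes of Eif2s1 and Casp12 between 4-PBA and CVST+Ligation were 0.00365 and 0.18.

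The sign of a fold change turned for these of the named genes. With the length offset they were Bbc3 with ligation (0.0219), Eif2ak3 (0.0127) and Gadd45a (-0.0341) for 4-PBA against CVST+Ligation, and Chac1 (0.0146) for 4-PBA against CVST. With total counts they were Eif2s1 for 4-PBA against CVST+Ligation (0.0254) and Chac1 for 4-PBA against CVST (0.0457). With limma Eif2s1 gave 0.0317 and 0.0321, Casp12 0.0901 and 0.24, and Chac1 0.0484 and 0.0542 with pseudocounts of 1 and 0.1. Without 1 library, the ranges for ligation were -0.0733 to 0.92 for Trib3, -0.000305 to 0.19 for Chac1, -0.14 to 0.0663 for Bbc3 and -0.59 to 0.77 for Casp12. For 4-PBA against CVST+Ligation they were -0.16 to 0.0358 for Eif2ak3, -0.14 to 0.14 for Eif2s1, -0.22 to 0.0982 for Ppp1r15a, -0.14 to 0.0643 for Atf4, -0.15 to 0.53 for Trib3, -0.11 to 0.0152 for Psph, -0.16 to 0.36 for Gadd45a, -0.20 to 0.0894 for Bbc3 and -0.43 to 0.93 for Casp12. For 4-PBA against CVST they were -0.12 to 0.0829 for Chac1 and -0.24 to 0.0317 for Bbc3. Depth limits Trib3, with 2 to 22 counts per library.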
